A study of Drosophila melanogaster with 2 samples.

Results

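The spliceosome protein genes are 35 protein-coding genes of the fruit fly Drosophila melanogaster, of 13968 on the chromosome arms, whose symbols in the Ensembl annotation begin or read as those of the Sm and LSm proteins, the U1 snRNP proteins, the Sf3a and Sf3b subunits, the U2af subunits, U2A, U4-U6-60K or a numbered Prp factor. The rule reads the symbol alone and uses no measured value, but the gene group was chosen with earlier results of these data known. For each gene, peaks of a chromatin immunoprecipitation experiment were taken when their summit, the position of highest signal, lay within 1000 bp of any annotated transcription start site (TSS) of the gene, here called promoter peaks. The experiment used an antibody against green fluorescent protein on whole embryos of the strain Bteb2-GFP, of both sexes, in which Bteb2, the product of the zinc finger gene Klf15, carries the enhanced form eGFP at its C terminus. The embryos were 4 to 20 h old by their source name, while the separate age entry of the labels cannot be read as an embryo age. There was 1 group of 2 libraries, labelled biological replicates 1 and 3, both from the same transgenic line, and sonicated chromatin had a size range of 200 to 800 bp. Whole embryos mix all cell types, the promoter that drives the fusion is not given in the sources used here, and nothing in the labels shows how separate both embryo collections were, so the spread between the libraries may be technical.

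The spliceosome removes introns from pre-mRNA. It is built from small nuclear ribonucleoproteins (snRNPs), each a small nuclear RNA (snRNA) held by a ring of Sm or LSm proteins and bound by proteins of its own. The U1 snRNP recognises the 5′ splice site, U2AF and the U2 snRNP with its SF3a and SF3b complexes the 3′ splice site and branch point, and the U4/U6.U5 tri-snRNP then joins and is rearranged into the active enzyme. These proteins are needed in every dividing and growing cell of the embryo. KLF proteins such as Bteb2 are DNA-binding zinc finger factors of GC-rich and CACCC-type boxes.

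The sequences at the summits of 7 of the 8 members with a reproducible promoter peak are shown. The sequence of LSm1 is left out, so the 7 were not chosen by strength. The LSm1 peak had a higher signal (91.5) than that of Sf3b1 (66.0), which is shown. Each printed sequence is the longest stretch without an annotated exon inside the 201 bp window around the summit, on Release 6 (dm6) coordinates, read 5′ to 3′ on the strand of the named gene. Capitals mark matches, on either strand, to the words searched: TATCGATA (the DNA replication-related element, DRE, bound by DREF), its core ATCGAT, GGTCACACT (motif 1, the site of M1BP), the 6-base word ACACTG, which overlaps the end of motif 1, the E-box CAGCTG, the TATA word TATAAA, the GAGA site GAGAGAG, and the KLF/SP boxes. Among these boxes the GC type was searched as GGGCGGG and also in its variant form GGGCGTG. The GT type was searched as GGGTGGG and also in its variant form GGGTGTG.
Sf3b6, chr3L:6193208-6193408, strand -: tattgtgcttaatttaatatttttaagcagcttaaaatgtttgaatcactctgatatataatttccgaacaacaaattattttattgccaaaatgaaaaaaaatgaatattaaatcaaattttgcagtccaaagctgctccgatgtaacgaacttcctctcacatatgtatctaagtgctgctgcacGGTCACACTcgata
Prp31, chr3L:15158798-15158998, strand +: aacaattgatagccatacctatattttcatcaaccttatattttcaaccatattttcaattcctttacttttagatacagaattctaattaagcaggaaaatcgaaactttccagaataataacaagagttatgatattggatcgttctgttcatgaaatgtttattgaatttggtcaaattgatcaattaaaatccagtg
snRNP-U1-C, chr3R:18983719-18983919, strand -: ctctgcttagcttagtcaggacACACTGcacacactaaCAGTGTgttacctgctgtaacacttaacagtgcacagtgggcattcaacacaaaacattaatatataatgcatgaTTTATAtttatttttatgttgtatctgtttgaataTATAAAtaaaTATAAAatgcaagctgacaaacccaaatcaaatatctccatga
U2af50, chrX:16359060-16359142, strand -: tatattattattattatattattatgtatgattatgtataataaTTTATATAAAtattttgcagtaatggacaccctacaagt
Prp3, chr3L:19910216-19910299, strand +: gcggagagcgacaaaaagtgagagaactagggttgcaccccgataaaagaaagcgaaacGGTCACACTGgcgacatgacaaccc
U4-U6-60K, chr3L:17514144-17514297, strand -: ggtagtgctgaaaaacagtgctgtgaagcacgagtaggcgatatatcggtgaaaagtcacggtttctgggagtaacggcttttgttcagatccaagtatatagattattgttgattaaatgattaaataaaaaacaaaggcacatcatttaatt
Sf3b1, chr2L:568140-568339, strand +: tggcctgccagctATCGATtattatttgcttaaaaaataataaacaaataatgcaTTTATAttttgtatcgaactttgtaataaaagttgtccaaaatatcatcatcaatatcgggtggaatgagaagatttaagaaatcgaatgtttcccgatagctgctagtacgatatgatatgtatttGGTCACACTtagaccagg

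Motif 1 stood in 3 of these sequences, those of Sf3b6, Prp3 and Sf3b1, always on the strand of the gene and close to its start. Its first base lay 42 bp upstream of the TSS of Sf3b6, 25 bp upstream of that of Prp3 and 18 bp upstream of that of Sf3b1. None of the 7 sequences held a full DRE, an E-box, a GAGA site or a KLF/SP box. Those of Prp31 and U4-U6-60K held no searched word at all.

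A second set shows 5 members whose strongest promoter peak was weaker and whose summit window held the DRE or its core.
Sf3b2, chr2L:3029169-3029252, strand -: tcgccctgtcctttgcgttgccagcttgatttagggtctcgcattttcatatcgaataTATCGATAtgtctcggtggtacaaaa
LSm3, chr3R:23995484-23995658, strand +: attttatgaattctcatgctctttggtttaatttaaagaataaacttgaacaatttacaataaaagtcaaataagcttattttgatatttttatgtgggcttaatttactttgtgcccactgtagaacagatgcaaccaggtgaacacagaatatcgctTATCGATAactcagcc
Sf3a2, chr3L:12814020-12814128, strand -: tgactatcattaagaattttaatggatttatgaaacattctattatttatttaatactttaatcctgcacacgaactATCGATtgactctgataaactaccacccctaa
Sf3a1, chr3R:17002364-17002564, strand -: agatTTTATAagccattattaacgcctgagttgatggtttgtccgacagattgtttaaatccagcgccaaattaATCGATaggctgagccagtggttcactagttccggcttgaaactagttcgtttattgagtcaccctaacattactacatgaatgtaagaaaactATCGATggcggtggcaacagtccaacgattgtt
LSm7, chr2L:16743101-16743260, strand -: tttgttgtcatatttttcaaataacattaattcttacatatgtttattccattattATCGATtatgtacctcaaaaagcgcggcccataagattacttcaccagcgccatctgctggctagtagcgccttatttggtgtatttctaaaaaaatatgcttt
The full DRE lay 26 bp upstream of the TSS of Sf3b2 and 619 bp upstream of the nearest TSS of LSm3. The LSm3 summit was nearer to CG33108 (75 bp) than to LSm3 (678 bp). Sf3a1 had 2 copies of the core, 135 and 41 bp upstream of its TSS.

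Reproducible peaks were about as frequent at these genes as at protein-coding genes in general. Of the 35 members, 8 had a promoter peak in the authors' optimal set of 3350 peaks, the set kept for reproducibility between replicates, a share of 22.9% (exact Clopper-Pearson 95% interval 10.4 to 40.1, counting error only). Over all protein-coding genes the share was 20.4%, inside that interval. The optimal peaks are the 3350 peaks of highest signal among 30000 candidate (relaxed) peaks called on the pooled replicates, so the strength of a peak is given here as its rank in that list, with 1 the strongest. The signal value is the authors' and has a scale of its own in each list. Of the members, Sf3b6 alone was within the first 1000 (2.86%, exact interval 0.0723 to 14.9, against 7.33% of protein-coding genes). For comparison, optimal promoter peaks were present at 64 of 88 cytoplasmic ribosomal protein genes (72.7%) and at 9 of 48 proteasome genes (18.8%).

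A promoter peak of any strength was present at all but 3 members. In the pooled relaxed list, which includes the optimal peaks, 32 of 35 members had one (91.4%, exact interval 76.9 to 98.2), against 62.4% of protein-coding genes. For 18 members (51.4%) the strongest promoter peak ranked between 3351 and 10000, just below the optimal set, against 21.7% of protein-coding genes. Down to rank 6700 the count was 18 (51.4%, against 33.8%), and down to rank 10000 it was 26 (74.3%, exact interval 56.7 to 87.5, against 42.1%). The range of 3351 to 10000 was set after the values had been seen. The lower ranks of the relaxed list may include background regions, since the authors name these lists peaks and background. At a q-value below 0.05 of the authors' peak caller, 24 members (68.6%, 50.7 to 83.1) had a promoter peak, against 40.9% of protein-coding genes. Among genes with a promoter peak, the median rank was 5274 for the members and 5960 for protein-coding genes. With genes without a promoter peak placed last, a measure that also reflects how many genes lack one, it was 6086 and 15022. Genes with another protein-coding TSS within 1000 bp came much nearer to the members. Of these, 49.9% had a promoter peak down to rank 6450 and 50.1% down to rank 6500.

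**Figure D1:**
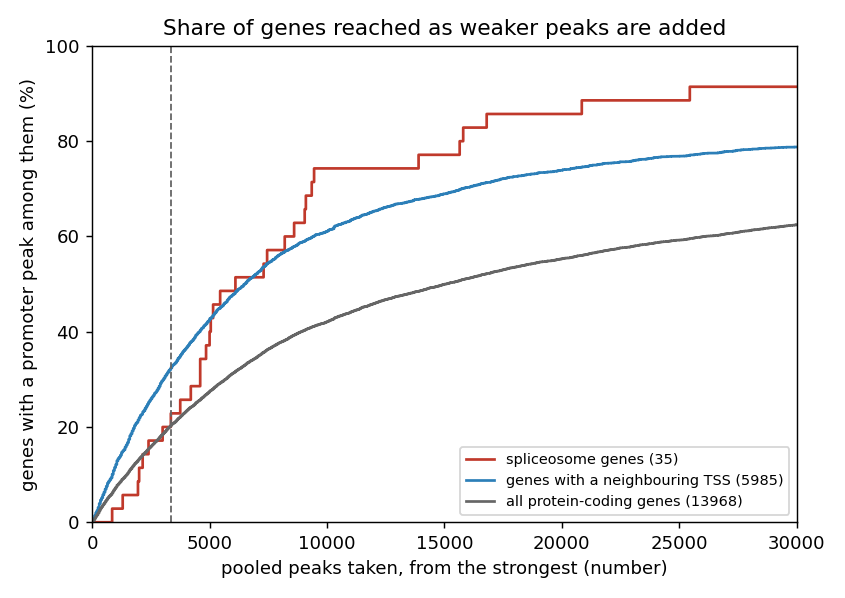
Share of genes (%) with a promoter peak among the strongest pooled peaks, against the number of peaks taken, for the 35 spliceosome genes, the 5985 protein-coding genes with another protein-coding TSS within 1000 bp and all 13968 protein-coding genes. At the dashed line, the 3350 optimal peaks, the spliceosome genes stand at 22.9%, near all genes and below genes with a neighbouring TSS, and at 10000 peaks they stand at 74.3%.

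The members stood close to other genes. Another protein-coding TSS lay within 1000 bp at 31 of 35 members (88.6%), against 42.8% of protein-coding genes, and at 30 of 35 a neighbour was divergent, with both genes transcribed away from each other (85.7%, against 35.5%). Genes with such a close neighbour had more promoter peaks throughout, with an optimal peak at 32.4%, a pooled relaxed peak at 78.8%, a peak at a q-value below 0.05 at 59.7% and a strongest peak ranked 3351 to 10000 at 28.7%. Down to rank 6700 and rank 10000 their shares were 51.1% and 61.1%. Genes with a divergent neighbour stood at 35.5% for an optimal peak, 55.8% and 66.4% down to those ranks, and 83.8% for a relaxed one. Of the 31 members with a neighbour, 8 had an optimal peak (25.8%, exact interval 11.9 to 44.6), 17 a peak down to rank 6700 (54.8%, 36.0 to 72.7), 24 a peak down to rank 10000 (77.4%, 58.9 to 90.4) and 29 a relaxed one (93.5%, 78.6 to 99.2). Each of these intervals holds the share of genes with a neighbouring TSS. A strongest peak ranked 3351 to 10000 was present at 16 of the 31 (51.6%, against 28.7%), and as that range was chosen after the values had been seen, this is a description. How far the neighbours account for the members' counts was not tested. None of the 4 members without a neighbour, U2A, SmF, snRNP-U1-70K and Prp4k, had an optimal peak (exact interval 0 to 60.2%), against 11.3% of protein-coding genes without a neighbouring TSS.

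Nearly all promoter peaks of the members could belong to the neighbour as well. The strongest pooled peak was within 1000 bp of a TSS of another gene at 30 of the 32 members with one (93.8%, against 56.7% of protein-coding genes with a peak). The TSS of the member was the nearer at 21 of the 32, while another gene was at least as near at 11 (34.4%, against 30.6%). Which of both genes a peak acts on cannot be told apart here.

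**Figure D2:**
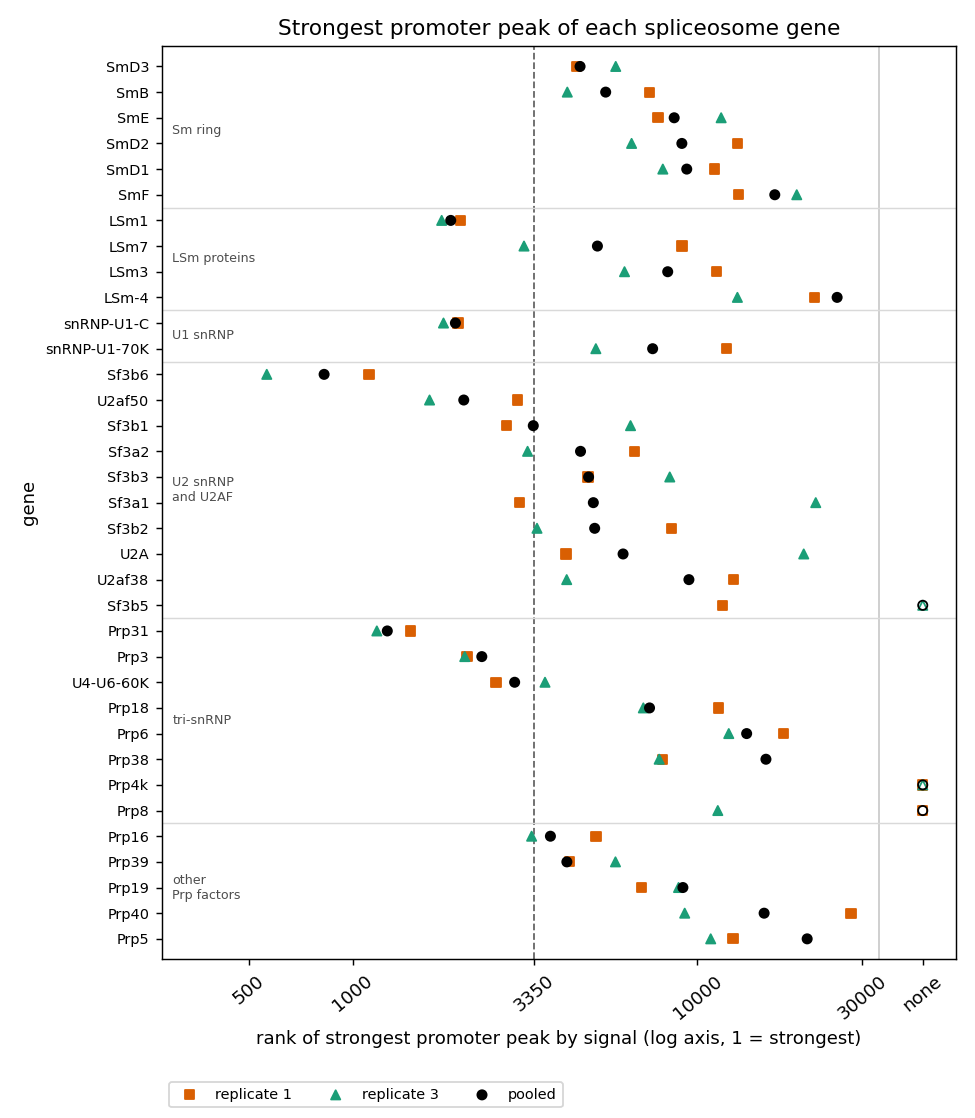
Rank by signal (log axis, 1 is the strongest) of the strongest promoter peak of each of the 35 genes in the pooled list (circles), replicate 1 (squares) and replicate 3 (triangles), grouped by role, with open marks at "none" for no promoter peak among 30000. The dashed line marks rank 3350, the limit of the optimal set, which 8 pooled marks pass.

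The U2 snRNP and U2AF group held the strongest peak of all and 3 of the 8 optimal ones among its 10 genes. Sf3b6 encodes the SF3b subunit that contacts the branch point adenosine. Its peak (chr3L:6193100-6193515, dm6) had a signal of 146 and rank 827 in the pooled list, rank 1116 in replicate 1 (signal 77.5) and rank 564 in replicate 3 (signal 67.9). The summit lay in intergenic sequence 129 bp upstream of Sf3b6 and 172 bp upstream of Tnpo, a nuclear import receptor gene on the other side.

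U2af50 encodes the large U2AF subunit, which binds the polypyrimidine tract. Its peak (chrX:16358952-16359367) had a pooled signal of 87.3 and rank 2101, rank 3000 in replicate 1 (signal 45.4) and rank 1672 in replicate 3 (signal 39.5). The summit was 121 bp upstream of U2af50 and 17 bp downstream of the TSS of PIG-Q, a gene of glycolipid anchor synthesis, in an exon of PIG-Q.

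Sf3b1, the large scaffold subunit of SF3b, was the member just inside the optimal set. Its peak (chr2L:568032-568447) had a pooled signal of 66.0 and rank 3342. In replicate 1 it ranked 2800 (signal 47.1), and the strongest promoter peak in replicate 3 ranked 6397 (signal 17.7), so the replicates fell on different sides of rank 3350. The summit lay between Sf3b1, 100 bp away, and Nle, a ribosome assembly gene, 119 bp away. The member just outside was Prp16, at rank 3747 with a signal of 61.4.

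The remaining 7 genes of the U2 group had no optimal peak, and 6 of them had a relaxed one, between ranks 4581 (Sf3a2) and 9446 (U2af38). Sf3a1, Sf3a2, Sf3b2, Sf3b3 and U2A encode core proteins of the U2 snRNP, and U2af38 the small U2AF subunit, which reads the 3′ splice site. Within the group, Sf3a1 and U2A differed most in rank between the libraries. Sf3a1 ranked 3049 in replicate 1 (signal 45.0) and 22028 in replicate 3 (signal 8.66), and U2A ranked 4160 and 20331. At Sf3a1 the replicate 3 summit was 764 bp from that of replicate 1, so the strongest peaks there were not the same region. Sf3b5, a small SF3b subunit, had a promoter peak in replicate 1 alone (rank 11807, 919 bp downstream of its TSS). As the gene is 370 bp long, that summit lay beyond its 3′ end.

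The tri-snRNP group had 3 optimal genes of 8, Prp31, Prp3 and U4-U6-60K, all of which encode proteins of the U4/U6 snRNP. In human, PRP31 binds the U4 snRNA. Its peak (chr3L:15158690-15159105) had rank 1261 in the pooled list (signal 116), 1469 in replicate 1 (signal 66.7) and 1176 in replicate 3 (signal 47.8). The replicate summits were 6 bp apart. The pooled summit was 202 bp upstream of Prp31 and 336 bp upstream of Msh6, a mismatch repair gene.

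Prp3 was the only member with 2 optimal peaks. The stronger (chr3L:19910094-19910509, signal 81.4, rank 2370) had its summit 1 bp from a TSS of Prp3 and 87 bp upstream of Mi-2, which encodes a chromatin remodelling ATPase. The other (chr3L:19909209-19909624, signal 80.1, rank 2433) lay 883 bp upstream of Prp3, 7 bp from the TSS of Su(Tpl), an elongation factor gene, and in an exon of the antisense RNA gene asRNA:CR43889. The strongest promoter peak of Prp3 ranked 2146 in replicate 1 (signal 54.4) and 2115 in replicate 3 (signal 34.5), but the former was the outer peak and the latter the one at the TSS, 847 bp apart.

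U4-U6-60K had an optimal peak (chr3L:17514036-17514451) of signal 71.4 and rank 2951, ranked 2605 in replicate 1 (signal 49.0) and 3614 in replicate 3 (signal 24.9). Its summit was nearer to CG7564 (54 bp) than to U4-U6-60K (332 bp).

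The other 5 genes of the group were weak or without a peak. Prp18, a factor of the second catalytic step in yeast, ranked 7262 in the pooled list, 11518 in replicate 1 and 6968 in replicate 3. Prp6 ranked 13888, 17760 and 12325 in the same order. Prp38, needed for spliceosome activation in yeast, ranked 15797 in the pooled list but 7901 and 7745 in the replicates, whose summits were 605 bp apart. Prp8, the large U5 protein at the heart of the catalytic centre, had none in the pooled list or replicate 1 and 1 of rank 11455 in replicate 3 (140 bp upstream, signal 12.6). Prp4k, a protein kinase gene of the tri-snRNP, was the only member with no promoter peak in any of the 3 relaxed lists.

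The 6 Sm ring genes had no optimal peak, and none was within the first 3350 of either replicate. Beside a share of 20.4% of protein-coding genes, a count of 0 among so few genes does not set them apart, and the same holds for the counts of the other groups. SmB, SmD1, SmD2, SmD3, SmE and SmF encode proteins of the heptameric ring around the U1, U2, U4 and U5 snRNAs. SmD3 was the highest, with pooled rank 4567 (signal 53.9), rank 4453 in replicate 1 (signal 35.4) and rank 5795 in replicate 3 (signal 18.8). SmB followed with 5419, 7253 and 4194. SmE, SmD2 and SmD1 lay between pooled ranks 8561 and 9310, and SmF at 16758. All 6 had their strongest pooled summit close to the TSS, between 74 bp upstream (SmD2) and 53 bp downstream (SmF). The strongest summits of replicates 1 and 3 were 72 bp (SmD3) to 731 bp (SmF) apart.

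Among the 4 LSm genes LSm1 alone had an optimal peak. LSm1 belongs to a cytoplasmic ring that acts in mRNA decay, and LSm3, LSm-4 and LSm7 are in both that ring and the one on the U6 snRNA. The peak of LSm1 (chr2R:21170705-21171120) had a pooled signal of 91.5 and rank 1926, with rank 2060 in replicate 1 (signal 55.6) and 1813 in replicate 3 (signal 37.6). The summit was nearer to Xpd, a helicase gene of TFIIH (88 bp), than to LSm1 (241 bp). LSm7 ranked 5128 in the pooled list, 9023 in replicate 1 and 3141 in replicate 3. LSm3 ranked 8199, and LSm-4, which shares its annotated start with CG17768, ranked 25407, 217 bp downstream of it.

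Of the 2 U1 snRNP genes that the symbol rule took, snRNP-U1-C had an optimal peak and snRNP-U1-70K did not. U1-C stabilises the pairing of U1 with the 5′ splice site. Its peak (chr3R:18983611-18984026) had a pooled signal of 89.8 and rank 1987, rank 2021 in replicate 1 (signal 56.2) and rank 1835 in replicate 3 (signal 37.3). The summit lay 169 bp upstream of snRNP-U1-C and 206 bp upstream of gukh. The strongest promoter peak of snRNP-U1-70K ranked 7414 in the pooled list, 12138 in replicate 1 and 5075 in replicate 3. The replicate summits were 967 bp apart, so these ranks are not of the same region.

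None of the other 5 Prp genes had an optimal peak. Prp16, an RNA helicase gene of the second catalytic step in yeast, had its strongest peak 683 bp upstream of a TSS, in an intron of Prp16 itself and nearer to l(1)G0469 (275 bp). It ranked 3747 in the pooled list (signal 61.4), 5082 in replicate 1 and 3305 in replicate 3. Prp39, which belongs to the U1 snRNP in yeast, ranked 4182, and its summit was 74 bp upstream of wdn but 691 bp upstream of Prp39. Prp19, a ubiquitin ligase gene of the complex named after it, ranked 9074, Prp40 15606 and Prp5 20802. In the replicates Prp40 ranked 27888 and 9184, and Prp5 12679 and 10925. The replicate summits were 953 bp apart at Prp40 and 427 bp apart at Prp5.

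The replicates gave similar counts and less similar orders. Each had 9 members within its first 3350 peaks (25.7%, against 20.3% of protein-coding genes in replicate 1 and 20.2% in replicate 3). In both at once there were 6 (17.1%, against 15.8%), namely Sf3b6, Prp31, LSm1, snRNP-U1-C, U2af50 and Prp3. U4-U6-60K, Sf3b1 and Sf3a1 completed the count in replicate 1, and Prp16, Sf3a2 and LSm7 that in replicate 3. Down to rank 6700 there were 15 members in replicate 1 (42.9%, against 33.5%) and 19 in replicate 3 (54.3%, against 32.6%), and 33 had some promoter peak in each (94.3%, against 62.7% and 62.4%). Over the 32 members ranked in both replicates, 22 stood higher in replicate 3 (68.8%, against 49.7% of protein-coding genes). The Spearman rho of the ranks was 0.569 over these 32 members and 0.790 over 7643 protein-coding genes, which are genes measured in the same libraries and not independent samples. The strongest summits of both replicates lay within 100 bp of each other at 16 of the 32 members, against 58.6% of the protein-coding genes ranked in both.

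Summits lay mostly just upstream of the start. The median position of the strongest pooled summit was -87 bp from the nearest TSS of the member, over the 32 members with one, and -103 bp over the 8722 protein-coding genes with one. It was upstream at 25 of 32 (78.1%, against 73.8%) and within 250 bp at 24 of 32 (75.0%, against 61.0%). All 8 members with an optimal peak had their strongest summit upstream, between -332 and -1 bp. Of the 32 summits 19 were intergenic, 11 in an annotated exon and 2 in an intron.

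**Figure D3:**
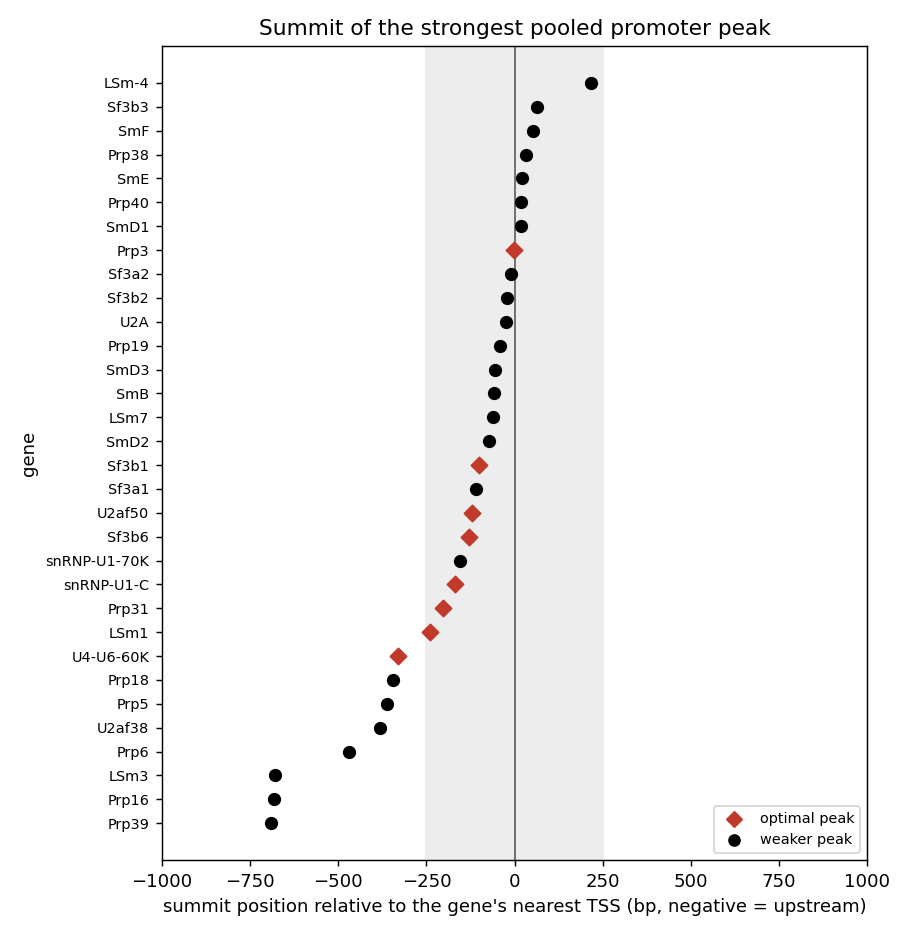
Position of the strongest pooled promoter summit relative to the nearest TSS of each of the 32 members with one (bp, negative is upstream), with diamonds for optimal and circles for weaker peaks and a grey band for 250 bp on either side. The diamonds lie between -332 and -1 bp, and LSm-4, at 217 bp, is the farthest downstream.

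Gene structure was close to that of protein-coding genes in general. Their median length was 2007 bp (370 to 23371), against 2164 bp for protein-coding genes, and 30 of 35 had a single annotated TSS (85.7%, against 73.5%). The median of the highest exon number of any transcript was 3 in both.

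The DRE, its core and motif 1 were counted in the promoters of the members. From 250 bases before to 50 after the most upstream TSS, the core ATCGAT was present in 18 of 35 promoters (51.4%, exact interval 34.0 to 68.6), against 31.4% of genes with a neighbouring TSS and 23.3% of all protein-coding genes. The full DRE was present in 9 (25.7%, 12.5 to 43.3, against 14.1% and 9.36%), an interval that holds the share of genes with a neighbouring TSS. Motif 1 was present in 8 (22.9%, 10.4 to 40.1, against 9.27% and 6.04%). The motifs were chosen with earlier results known, so these shares are descriptions. The KLF/SP boxes, the type of site that KLF proteins bind, were present in 2 promoters, those of Prp40 and SmF (5.71%, against 5.16% and 6.17%), and the GAGA site in none (against 3.79% and 5.86%). The shares for ACACTG (25.7%), the E-box (17.1%) and TATAAA (54.3%) were within 10 percentage points of those of all protein-coding genes (18.9%, 17.7% and 45.9%). A match of letters is a description of the window and not a bound site.

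**Figure D4:**
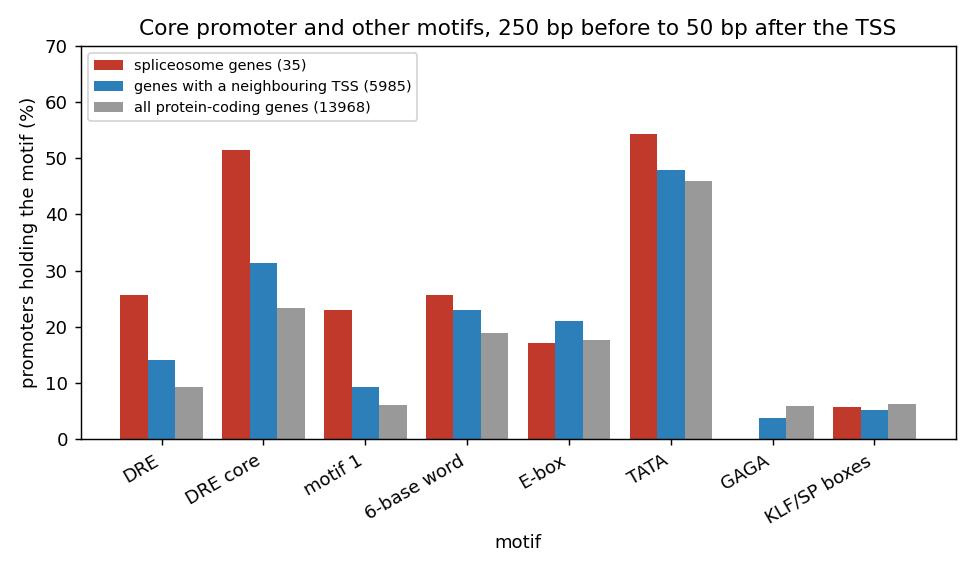
Share of promoters (%, bars without error) that hold each motif on either strand, for the 35 spliceosome genes, 5985 genes with a neighbouring TSS and all 13968 protein-coding genes. The DRE core stands at 51.4%, 31.4% and 23.3%, and motif 1 at 22.9%, 9.27% and 6.04%, in that order, while the KLF/SP boxes stand at 5.71%, 5.16% and 6.17%.

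The motifs were also counted at the summits themselves. For each member only the strongest promoter peak was taken, while the shares set beside them cover every promoter peak of any annotated gene. These units differ, and peaks of genes with a neighbouring TSS were not counted apart. In windows of 201 bp, motif 1 was present at 3 of the 8 optimal member peaks (37.5%), those shown for Sf3b6, Prp3 and Sf3b1, against 2.96% of 2294 optimal promoter windows. It was at none of the 18 members ranked 3351 to 10000, where 4.57% of all 3875 promoter windows held it, but stood at the weaker summit of SmF (rank 16758), which makes 4 of 32 members. The DRE core was present at 2 of 8 optimal peaks, those of LSm1 and Sf3b1 (25.0%, against 17.7%), at 8 of the 18 ranked 3351 to 10000 (44.4%, against 17.1%), and at Prp6 and Prp40 below these. With 200 bp to each side of the summit it was at 4 of the 8 optimal peaks. The full DRE was at none of the 8 and at 3 of the 18, Sf3b2, U2A and LSm3 (16.7%, against 7.12%). The only summit window of a member with a KLF/SP box was that of Prp40. Motif 1 and the DRE core rest on few windows, and no difference between stronger and weaker peaks was tested. Median GC content was 31.6% at the 8 optimal member summits, against 35.3% in optimal promoter windows, and 37.1% at those 18 members.

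Among other splicing genes, optimal promoter peaks were present at 19 of 48. This list, made up of SR proteins, the exon junction complex, Prp19-related factors, helicases and U5 proteins, splicing regulators and snRNP assembly factors, thus stood at 39.6%, against 20.4% of protein-coding genes and 22.9% of the members, and 42 of its genes had a relaxed peak (87.5%, against 62.4%). Of the 48, 35 had a neighbouring TSS. The shares of protein-coding genes with one were 32.4% and 78.8%, and those of genes without one 11.3% and 50.2%. Among the 19, mub, ps, Sxl, Rm62, Srrm1 and tsu had no neighbouring TSS, and the rest had one. No share matched to this mix was computed. The difference from the members was not tested. By class these were 6 of 9 regulators, 5 of 12 SR protein genes, 3 of 6 helicases and U5 proteins, 3 of 9 Prp19-related factors, 1 of 4 exon junction genes and 1 of 8 assembly factors. Within 250 bp of a TSS the count was 11 of 48, and 7 of 35 for the members, against 14.8% of protein-coding genes. The list was chosen with earlier results of these data known.

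The strongest 2 of these peaks belonged to regulators. The peak of mub, a gene of a KH domain RNA-binding protein, ranked 183 (signal 284) and lay 885 bp downstream of a TSS. That of ps, a Nova-type splicing regulator, ranked 522 (signal 178) and lay 699 bp downstream of one. SF2, an SR protein gene, ranked 560 (shared with pad). The gene fl(2)d, of the RNA methylation complex that assists Sxl, ranked 686 (shared with CG13339). BCAS2, of the Prp19 complex, ranked 945 (shared with RpL4). These genes were followed by Sxl, the master regulator of sex determination by splicing, at 1492 and the U5 helicase gene Brr2 at 1667 (shared with CG10516).

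Of 32 snRNA genes 5 had an optimal peak within 1000 bp (15.6%, against 20.4% of protein-coding genes). The U6 copies snRNA:U6:96Ab and snRNA:U6:96Ac shared a peak of rank 1452, snRNA:U5:63BC had one of rank 2348, and snRNA:U4:39B and snRNA:U5:35D ranked 3344 and 3346, at the edge of the optimal set.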

How the data were processed

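Anti-GFP chromatin immunoprecipitation was measured in 2 libraries of embryos with the Bteb2-eGFP fusion (strain Bteb2-GFP). The authors' deposited peak lists on dm6 were used, namely a relaxed list for each replicate, 1 for the pooled replicates and the optimal set that the irreproducible discovery rate method kept from these 3, per the notes beside the files. Aligner, peak caller and threshold are not stated in those notes or the labels. The signal value of each peak (column 7), the −log10 q-value (column 9) and the summit offset (column 10) are the authors' deposited values. Signal has a scale of its own in each list, so peaks were ranked by it within a list. The dm3 lists were not used. The lists carry no read numbers, and depth is therefore unknown. No control list or list of another tagged factor was analysed here.

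Coordinates are 1-based. Genes and TSSs were those of Ensembl release 115 (18277 genes on the arms, without transposable elements), and sequences those of the Release 6 genome of RefSeq, whose arms are long enough to hold every dm6 peak. Summits at most 1000 bp from a TSS were assigned to its gene. A neighbouring TSS is that of another protein-coding gene within 1000 bp. Members are described by counts beside those over all protein-coding genes, with no test, since there is 1 group and genes are not replicates. Every member with an optimal promoter peak is named with its values, the others by role, and of the further splicing genes the 8 strongest, of which 1 is not reported here. Of 52 symbols listed for these, 9 were matched through synonyms, 3 were repeats and 1 was not matched. Members, lists, motifs and roles were chosen with earlier results of these data known. The assignment of summits to genes was tested on 200 planted summits. Alternatives covered distance, TSS choice, peak set, overlap, replicates and window width. Scripts ran in Python 3.11.15 with pandas 2.3.3, NumPy 2.4.6, SciPy 1.17.1 and, for plots, matplotlib 3.10.9.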

Additional observations from a re-analysis of the deposited data

How the results depend on the processing

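The count of 8 members with an optimal promoter peak ranged from 7 to 9 (20.0 to 25.7%) under alternatives of distance, TSS and overlap. These were distances of 250, 500 or 2000 bp, the most upstream TSS alone, and any part of the peak within 1000 bp. Over protein-coding genes the same settings gave 14.8 to 24.8%. The members' count was 9 in each single replicate (25.7%, against 20.3% in replicate 1 and 20.2% in replicate 3). It depended on how many peaks were taken, with 1 member (2.86%, against 7.33% of protein-coding genes) for the strongest 1000 optimal peaks and 18 (51.4%, against 33.8%) down to pooled rank 6700. The 19 of 48 further splicing genes became 11 within 250 bp (against 14.8% of protein-coding genes) and 5 for the strongest 1000 optimal peaks (against 7.33%). Down to rank 6700 they were 31 (64.6%, against 33.8%), and in the single replicates 15 to 18 (against 20.2 to 20.3%). In both replicates at once there were 0 members within the first 1000 peaks and 12 within the first 6700, in place of 6. The share of protein-coding genes in both replicates was counted for the first 3350 alone (15.8%), so these alternatives have no comparison. The median pooled rank of 5274 over the 32 members with a promoter peak (against 5960 for protein-coding genes) was 6674 within 500 bp. It was 7253 in replicate 1 (against 6081) and 6145 in replicate 3 (against 6240). The count of 2 optimal member summits with the DRE core was 0 within 50 bp of the summit and 4 within 200 bp. Chosen after seeing the data, the alternatives for any relaxed promoter peak gave 28 to 34 members in place of 32 (against 46.8 to 70.2% of protein-coding genes). Those for ranks 3351 to 10000 gave 12 to 19 in place of 18 (against 16.8 to 23.8%). There were 12 of them in replicate 1 (against 21.5%) and 16 in replicate 3 (against 20.4%). The cause of these differences was not tested. No paired analysis was possible because there is a single group. The depth of the libraries is unknown, and 35 genes limit the precision of every share.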

Other observations

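Genes of LSm-type proteins that the annotation spells Lsm are not among the 35. Lsm10 and Lsm11, which belong to the ring of the U7 snRNP that processes histone mRNA, and Lsm12a had no optimal promoter peak. Their strongest promoter peaks ranked 20636, 14781 and 10433 in the pooled list. In replicate 1 the ranks were 13072, 18632 and 9098, and in replicate 3 they were 21925, 16824 and 12733.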
